A study of Homo sapiens with 42 samples.

Results

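The sites described here were called as peaks almost only after oncostatin M (OSM). They are 168 of the 167085 merged ATAC-seq sites of 42 MCF10A libraries, or 0.101%. Sites were made by joining peaks that shared at least 1 bp, over all libraries, on chromosomes 1 to 22 and X. The OSM sites were chosen by detection alone: a peak in at least 3 of the 6 OSM libraries and in at most 1 of the other 36. Their presence under OSM is therefore a description of the choice and was not tested.

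MCF10A cells are an immortalised human breast epithelial line that does not form tumours. ATAC-seq marks DNA that a transposase can reach, and a peak is a stretch with more fragments than its surroundings. OSM was given at 10 ng/ml without EGF for 24 h or 48 h, in 3 libraries at each time. The other groups were untreated CTRL cells at 0 h (4 libraries) and cells given PBS, EGF at 10 ng/ml, HGF at 40 ng/ml, IFNG at 20 ng/ml with EGF, or TGFB at 10 ng/ml with EGF for the same times (4 libraries each for EGF and 3 each for the rest). All groups came from the same line after a period in medium without EGF, so EGF was absent from the OSM libraries and present with IFNG and TGFB.

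OSM is a cytokine of the IL-6 family, made mainly by immune cells. It binds its receptor OSMR, or LIFR, together with the shared chain IL6ST (gp130), which activates JAK kinases and the transcription factor STAT3. Dimers of STAT factors bind a palindrome with the letters TTCNNNGAA, and in epithelial cells OSM is known for acute-phase, wound and migration responses.

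The following sequences show 2 of the OSM sites called in 5 OSM libraries, because these are among the best replicated members. Each runs from 100 bases before to 100 bases after the strongest summit on the plus strand of hg38, with matches to the STAT palindrome or to the AP-1 motif TGACTCA (either strand) in capitals. KYNU_1 lies at chr2:142642829-142643029 and TSHZ2_1 at chr20:53070921-53071121. Sites are named for the gene with the nearest transcription start, which says nothing of the gene they act on.
KYNU_1: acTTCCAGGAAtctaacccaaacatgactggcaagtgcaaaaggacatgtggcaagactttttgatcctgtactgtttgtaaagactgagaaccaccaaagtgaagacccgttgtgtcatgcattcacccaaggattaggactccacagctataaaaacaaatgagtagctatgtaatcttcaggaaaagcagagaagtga
TSHZ2_1: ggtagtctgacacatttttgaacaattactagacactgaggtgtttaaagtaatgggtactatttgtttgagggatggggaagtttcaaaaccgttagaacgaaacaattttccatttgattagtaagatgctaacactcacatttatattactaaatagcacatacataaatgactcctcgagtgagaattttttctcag

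KYNU_1 carried 1 STAT palindrome, in the stricter form TTCCAGGAA, near the edge of the window and so far from the summit. TSHZ2_1 carried neither set of letters in this window.

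The next sequences are the OSM sites with a STAT palindrome that lay near a gene of the fixed lists. They are shown because they hold the motif beside listed genes, BCL6 and IL4R from the list of STAT3 and OSM targets and SERPINB4 from that of basal and squamous epithelium. BCL6_1 is chr3:187737856-187738056, SERPINB4_1 is chr18:63647048-63647248 and IL4R_1 is chr16:27318494-27318694, again on the plus strand of hg38 with STAT and AP-1 matches in capitals.
BCL6_1: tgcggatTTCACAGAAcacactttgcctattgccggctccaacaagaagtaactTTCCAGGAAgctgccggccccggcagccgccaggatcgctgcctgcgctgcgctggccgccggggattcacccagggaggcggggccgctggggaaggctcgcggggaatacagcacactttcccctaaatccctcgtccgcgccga
SERPINB4_1: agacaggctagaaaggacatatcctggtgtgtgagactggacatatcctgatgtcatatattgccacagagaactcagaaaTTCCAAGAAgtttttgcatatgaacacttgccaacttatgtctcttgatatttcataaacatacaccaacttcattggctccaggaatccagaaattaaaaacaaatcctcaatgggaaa
IL4R_1: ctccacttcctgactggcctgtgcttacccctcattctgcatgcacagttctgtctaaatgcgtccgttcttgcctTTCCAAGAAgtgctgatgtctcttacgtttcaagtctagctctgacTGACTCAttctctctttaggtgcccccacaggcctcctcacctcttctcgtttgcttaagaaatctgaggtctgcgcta

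BCL6_1 held 2 STAT palindromes, TTCACAGAA, near the edge of the window, and TTCCAGGAA. SERPINB4_1 and IL4R_1 each held the letters TTCCAAGAA, and IL4R_1 also held an AP-1 motif.

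Libraries differed in the number of peaks, from 4217 to 113805, and 8 had fewer than 30000. Read counts are not part of the peak files, so sequencing depth was unknown and no detection floor could be given. The study set aside ATAC-seq libraries with a low share of reads in peaks for its own analysis, but the labels do not say which, so none was left out here. A missing call in a library with few peaks, such as the OSM 48 h replicate B, therefore does not show that a site was closed. Peaks within 1000 bp of a transcription start were found in at least 21 of 42 libraries for 8 of 10 mammary epithelial markers, against 60.4% of all protein-coding genes. Among the 8 were KRT5 (31 libraries), KRT18 (36) and CDH1 (28). The exceptions were KRT14 (10 libraries) and TP63, with none. Of 10 markers of other cell types, 9 had no such peak in any library, against 27.3% of all protein-coding genes, and COL1A1 had one in 6. The study's methods describe biological replicates, and the labels give them by letter. In bulk libraries, a site open in a few cells and a site slightly open in all cells cannot be told apart.

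Detection of the 168 OSM sites was uneven over the OSM libraries. At 24 h, replicate A (109778 peaks) called 163, replicate B (51317 peaks) called 93 and replicate C (42788 peaks) called 61. At 48 h, replicate A (77169 peaks) called 151, replicate B (11798 peaks) called 7 and replicate C (35947 peaks) called 69. Both A libraries were high and the 48 h replicate B was lowest, in the order of their peak numbers except between the 24 h and 48 h replicates C. All 151 sites called in the 48 h replicate A were also called in the 24 h replicate A. Over all merged sites, 57428 of the 62893 called in the 48 h replicate A were also called in the 24 h replicate A. The choice rested on these libraries: it gave 38 sites without the 24 h replicate A, 47 without the 48 h replicate A and 105 without the 24 h replicate B. Of the 168 sites, 128 were also called in replicate B or C at 24 h, 70 in replicate B or C at 48 h and 30 in both. By the rule, every OSM site had to be called in a replicate B or C of either time. Shares of these patterns over all merged sites were not counted.

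**Figure D1:**
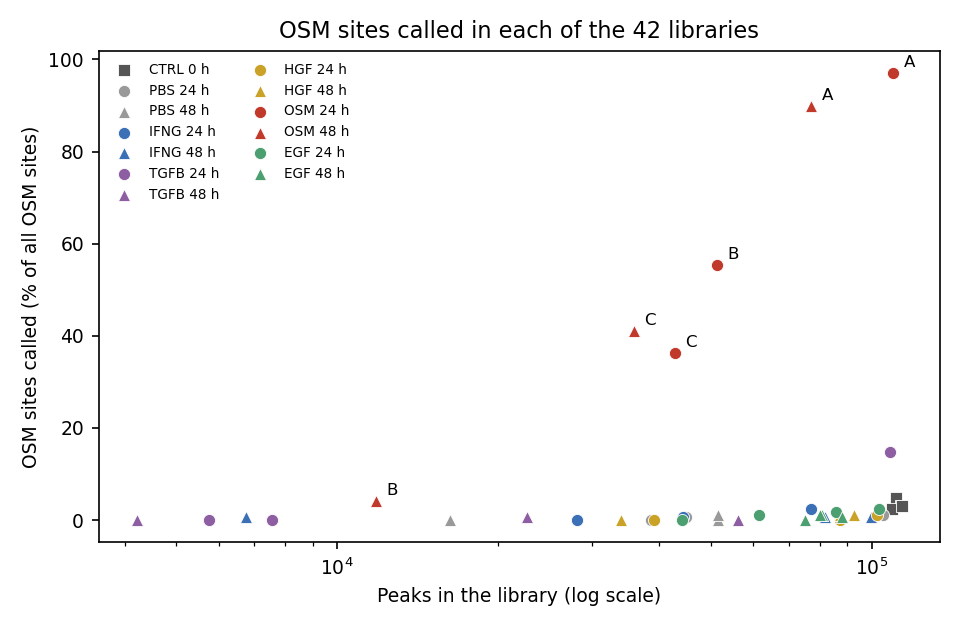
Percent of the 168 OSM sites called in each library (vertical axis) against the number of peaks in that library (horizontal axis, log scale), with 1 point a library, coloured by ligand and shaped by time. The 6 OSM libraries (letters mark replicates) lie between 4.17% and 97.0%, and the highest of the other libraries is the TGFB 24 h replicate A at 14.9%.

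Most OSM sites were at the threshold. In all, 135 were called in 3 OSM libraries, 27 in 4, 5 in 5 and 1 in 6. Of the 168, 87 had no peak in any other library and 81 had 1. Just inside the threshold, the 68 sites with 3 OSM libraries and no other had a median fold enrichment of 5.94, and the 67 with 3 and 1 had 5.18. Just outside, the 74 sites with 3 OSM and 2 other libraries had 5.00, the 412 with 2 and no other had 5.18 and the 394 with 2 and 1 other had 5.43, so height did not separate the sites inside the threshold from those outside. Fold enrichment is the MACS2 value at the summit, the fragment pileup over the local background, here as the median over the OSM libraries that call a site.

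The same rule applied to the 6 libraries of another ligand gave 53 sites for PBS, 152 for HGF, 72 for TGFB with EGF and 2073 for IFNG with EGF. For the 8 EGF libraries against 34 others it gave 270. At 4 or more libraries the counts were 4 for PBS, 18 for HGF, 33 for OSM, 4 for TGFB, 41 for EGF and 865 for IFNG. The median number of peaks per library was 48276 for PBS, 87336 for HGF, 47052 for OSM, 15095 for TGFB, 80464 for EGF and 60815 for IFNG, and its part in these counts was not tested.

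The best replicated OSM site was PIK3C3_1, the only one called in 6 of 6 OSM libraries and in no other library. It is intergenic, and the nearest start, over 100 kb away, is that of PIK3C3, the lipid kinase that starts autophagosome formation. Its fold enrichment was 15.5, 9.85 and 6.51 in replicates A, B and C at 24 h and 13.1, 4.24 and 9.20 at 48 h. It was highest in both A libraries and lowest in the 48 h library with the fewest peaks.

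OXR1_1 was called in 5 OSM libraries and no other, in an intron of OXR1, a gene of oxidation resistance, 15689 bp downstream of a start. Its fold enrichment was 15.3, 9.79 and 11.03 at 24 h and 12.1 and 6.10 in replicates A and C at 48 h. KYNU_1 (chr2:142642596-142643186), also with no call elsewhere, is intergenic and 234728 bp upstream of KYNU, which encodes kynureninase, an enzyme of tryptophan breakdown. It had 11.03, 6.27 and 4.19 at 24 h and 10.3 and 5.69 in A and C at 48 h.

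The other 3 sites in 5 OSM libraries each had 1 call elsewhere. TSHZ2_1 (chr20:53070637-53071218) lies in an intron of TSHZ2, a zinc finger factor, and had 8.32, 5.74 and 4.48 at 24 h and 8.68 and 5.86 in A and C at 48 h. ZP3_1 lies in an intron of ZP3, a glycoprotein of the egg coat, with values of 7.40, 4.22 and 5.13 at 24 h against 10.6 and 3.61 at 48 h. WWC1_1 lies in an intron of WWC1, a scaffold of the Hippo pathway, with values of 6.59, 4.70 and 5.77 at 24 h against 4.32 and 4.85 at 48 h. The call elsewhere was in an EGF 24 h library for TSHZ2_1 and in the TGFB 24 h replicate A for ZP3_1 and WWC1_1. None of the 6 best replicated sites lay within 1000 bp of a transcription start, and all but PIK3C3_1 were missed by the 48 h replicate B.

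Of the 7 sites near genes of the fixed lists, 6 had a median fold enrichment below 5.58, the median over all OSM sites, and ITGAV_1 was above it at 7.70. BCL6_1 (chr3:187737545-187738041) lies in an intron of BCL6, a transcriptional repressor known as a STAT target, 1387 bp upstream of a start. Its fold enrichment was 3.95 and 3.23 in A and B at 24 h and 4.27 in A at 48 h, and no other library called it. IL4R_1 (chr16:27318452-27318741), in an intron of the interleukin-4 receptor gene and 4620 bp downstream of a start, had 4.81 and 3.72 in A and B at 24 h and 3.74 in A at 48 h. Both sites were thus missing from both C libraries and from the 48 h replicate B. NNMT_1 (chr11:114321786-114322195), 25706 bp from a start of NNMT, a methyltransferase of nicotinamide, had 5.56 in A at 24 h and 3.41 and 4.48 in A and C at 48 h, with 1 call in the TGFB 24 h replicate A.

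Among genes of basal and squamous epithelium, SERPINB4_1 (chr18:63647022-63647338) lay 2892 bp upstream of SERPINB4 and 14736 bp from SERPINB3, inhibitors of proteases in squamous epithelia. It had a fold enrichment of 4.80 and 4.53 in A and C at 24 h and 5.69 in A at 48 h. S100A8_1 (chr1:153386478-153386750) lay 4334 bp from S100A8 and 28788 bp from S100A9, whose products form calprotectin, and had 5.01 and 3.38 in A and B at 24 h and 3.00 in A at 48 h. S100A7_1 (chr1:153470672-153471039), 10262 bp from the psoriasin gene S100A7, had 5.94 and 4.39 in A and B at 24 h and 3.28 in A at 48 h. These S100 sites lay 84271 bp apart and were the only OSM sites within 100 kb of another. ITGAV_1 (chr2:186554447-186554826), 35393 bp upstream of the integrin gene ITGAV, had 9.08 and 9.78 in A and B at 24 h and 6.32 and 4.82 in A and C at 48 h.

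In the lists, written with earlier results of these data known, 9 of 150 genes (6%) had an OSM site within 50 kb of a start, against 134 of all 19609 protein-coding genes (0.683%). By list these were 3 of 27 STAT3 and OSM targets (BCL6, IL4R and NNMT), 5 of 24 basal and squamous genes and 1 of 24 migration and matrix genes. Since SERPINB3 shares its site with SERPINB4 and S100A9 with S100A8, the 9 genes stand for 7 sites. No OSM site was within 50 kb of the 9 ligands, 7 receptors, 4 JAK kinases, 7 STAT factors or 14 JAK-STAT inhibitors of the pathway, of 20 acute-phase genes or of 16 interferon response genes. Peaks within 1000 bp of a start were found in at least 21 of 42 libraries for all 14 inhibitors, 6 of 7 receptors, 6 of 7 STAT factors and 3 of 4 JAK kinases, against 60.4% of all protein-coding genes. Of the 9 ligands, 2 (IL6 and CLCF1) had such a peak in at least 21 libraries, and 4 (OSM, CNTF, IL27 and IL31) had none in any library, against 27.3% of all genes with none. OSMR had such a peak in 39 libraries, LIFR in 38 and IL6ST in 41.

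The 168 sites were nearest to 163 genes, and 5 genes were nearest to more than 1 site. CNTNAP5, of the neurexin family, had 2 sites in its introns, with fold enrichments of 9.87, 6.57 and 9.02 in 24 h A, 24 h C and 48 h A at CNTNAP5_1 and of 7.35, 3.58 and 14.6 in 24 h A, 24 h B and 48 h A at CNTNAP5_2. ENPP2, which encodes the lysophospholipase autotaxin, had ENPP2_1 in its own intron (3.69, 3.23 and 4.16 in 24 h A, 24 h B and 48 h A) and ENPP2_2 in an intron of TAF2 (6.48, 6.72, 10.6 and 6.57 in 24 h A, 24 h B, 48 h A and 48 h C). CNTNAP5_1 and ENPP2_1 each also had a call in the TGFB 24 h replicate A. OXR1 had OXR1_2 besides OXR1_1, with 5.53 in 24 h A, 4.31 in 48 h A and 4.78 in 48 h C.

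LRATD2_1, called only at 24 h, had 6.05, 3.58 and 4.65 in replicates A, B and C. LRATD2_2 had 9.27, 7.18 and 6.16 at 24 h and 6.35 in A at 48 h, with a call in the TGFB 24 h replicate A. The LRATD2 sites were 502144 bp and 298913 bp from the gene. SRGAP2C, a partial copy of SRGAP2, was nearest to SRGAP2C_1 (chr1:121640517-121640813) and SRGAP2C_2 (chr1:122791345-122791647), 453599 bp and 1604448 bp from the gene. SRGAP2C_1 had 5.98, 6.78 and 4.38 in 24 h C, 48 h B and 48 h C, and neither A library called it although these have the most peaks of the OSM libraries. It was 1 of 5 OSM sites missed by both A libraries. The others were nearest to ANKRD30B, SIRPA, ZNF337 and DEFB115, a group singled out after its values were seen. These starts were 2001144, 17084, 811177 and 873510 bp away. Peaks were not filtered here for repeats or poorly mapped regions, so such sites are not excluded from the set.

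**Figure D2:**
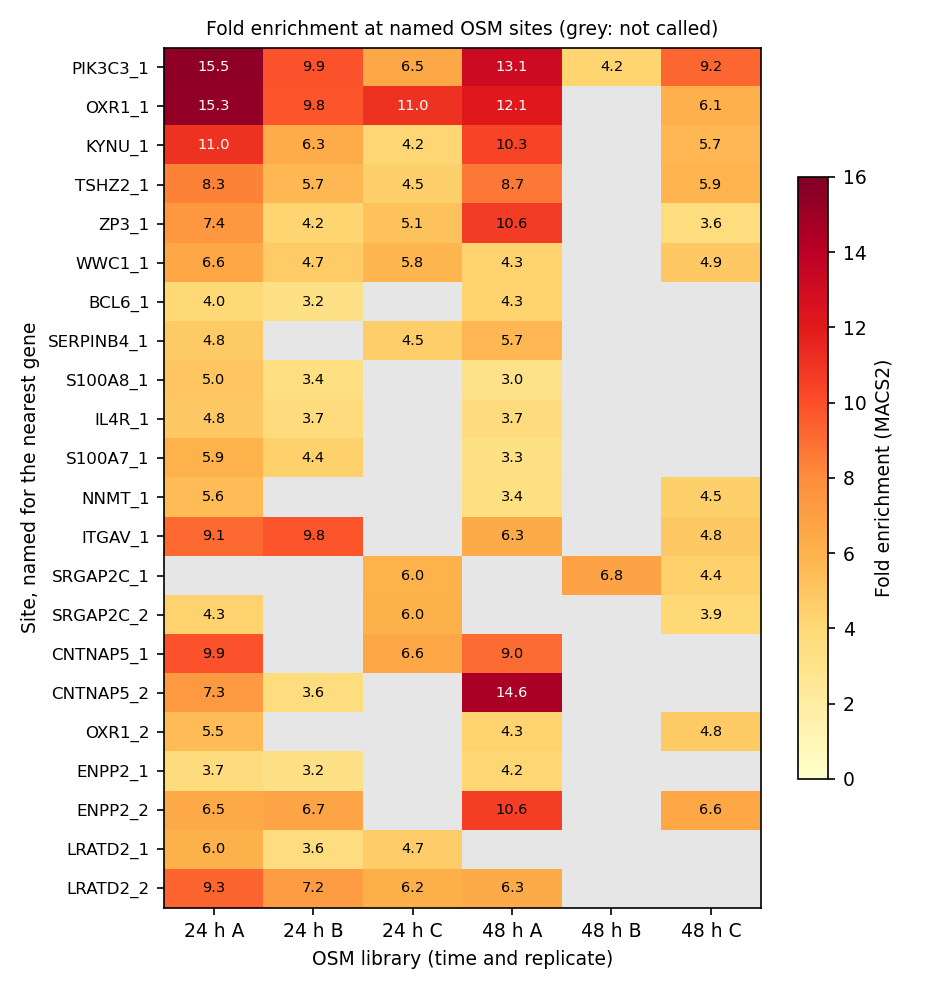
Fold enrichment (colour and printed value) of 22 named OSM sites (rows, by nearest gene) in the 6 OSM libraries (columns, by time and replicate), with grey where the library has no peak. PIK3C3_1 is filled in all 6 columns, and the 48 h replicate B is filled at PIK3C3_1 and SRGAP2C_1 only among these sites.

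A few other sites, named after their values were seen, lay near genes of known function in epithelia. TSLP_1 lay 1631 bp upstream of TSLP, an epithelial cytokine, and had a fold enrichment of 5.21 and 4.40 in A and B at 24 h and 8.47 in A at 48 h. MECOM_1, in an intron of the transcription factor gene MECOM, had 12.6 in A at 24 h and 10.6 and 4.82 in A and C at 48 h. MCL1_1, 7497 bp downstream of a start of the survival gene MCL1, was called in 4 OSM libraries at 2.25, 2.65 and 2.78 at 24 h and 2.42 in A at 48 h, the lowest median of all OSM sites (2.53). MECOM_1 also had a call in the CTRL replicate A, and MCL1_1 in the IFNG 24 h replicate A. EHF_1, 35623 bp upstream of the epithelial ETS factor gene EHF, had 4.56 and 4.03 in A and B at 24 h and 3.99 and 4.61 in A and C at 48 h.

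OSM sites were of ordinary or low height. In the A libraries their median fold enrichment was 6.48 at 24 h and 6.35 at 48 h, against 6.84 and 6.95 over all peaks of these libraries. These medians were at the 45.4th and 42.6th percentile of all peaks. In the other 4 OSM libraries the medians were 4.33 to 4.51, at the 22.8th to 25.5th percentile. At merged sites called in 3 to 6 of all 42 libraries, as the OSM sites were, the medians were 5.18 and 5.23 in the A libraries, below those of the OSM sites. In the other 4 libraries these were 4.38 to 4.90, and the OSM sites were lower in the 24 h replicate C and the 48 h replicate B. Over the 168 sites, the site medians ran from 2.53 to 11.7, with a median of 5.58.

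The STAT palindrome was more frequent at OSM sites than in any other set of sites compared. It lay within 100 bp of the strongest summit at 43 of 168 OSM sites, or 25.6% (95% Wilson interval 19.6 to 32.7%). It was at 8.05% of all merged sites and at 8.59% of the 26719 other merged sites called in 3 to 6 libraries. Of the sites the same rule gave for other ligands, it was at 13.3% for IFNG (11.9 to 14.8%), 13.2% for PBS (6.55 to 24.8%), 8.55% for HGF (5.07 to 14.1%), 7.41% for EGF (4.85 to 11.2%) and 6.94% for TGFB (3.00 to 15.2%). The interval of the PBS sites overlapped that of the OSM sites, and the others did not. Intervals cover counting error only and treat sites as independent. Of 35116 RefSeq promoters of 300 bases, 7.66% held these letters.

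The share was higher at sites called in more OSM libraries, a comparison that was not tested. Among sites with at most 1 call elsewhere it was 13.1% at 6850 sites called in 1 OSM library, 16.9% at 806 sites called in 2, 23.7% at 135 sites called in 3 and 33.3% at 33 sites called in 4 or more. The intervals of the last 2 classes overlapped (17.3 to 31.5% and 19.8 to 50.4%). OSM sites with the palindrome had a median fold enrichment of 6.01 and those without 5.26, and 11 of 43 against 22 of 125 were called in 4 or more OSM libraries.

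The stricter form TTCCNGGAA, a subset of the palindrome, was at 13 OSM sites (7.74%, interval 4.58 to 12.8%), at 0.901% of all merged sites and at 2.65% of the IFNG sites. These 13 included KYNU_1, BCL6_1 and MECOM_1, and also DUSP10_1, 92933 bp upstream of the phosphatase gene DUSP10, and SERPINF2_1, in an intron of SERPINF2, the plasmin inhibitor. SERPINF2_1 also had a call in the HGF 24 h replicate A. The palindrome was also close to the summit: 19 of the 43 matches were within 25 bp (44.2%), against 29% at all merged sites with the palindrome and 28% at those called in 3 to 6 libraries. The median distance was 36 bp at OSM sites and 45 bp in both of these sets.

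**Figure D3:**
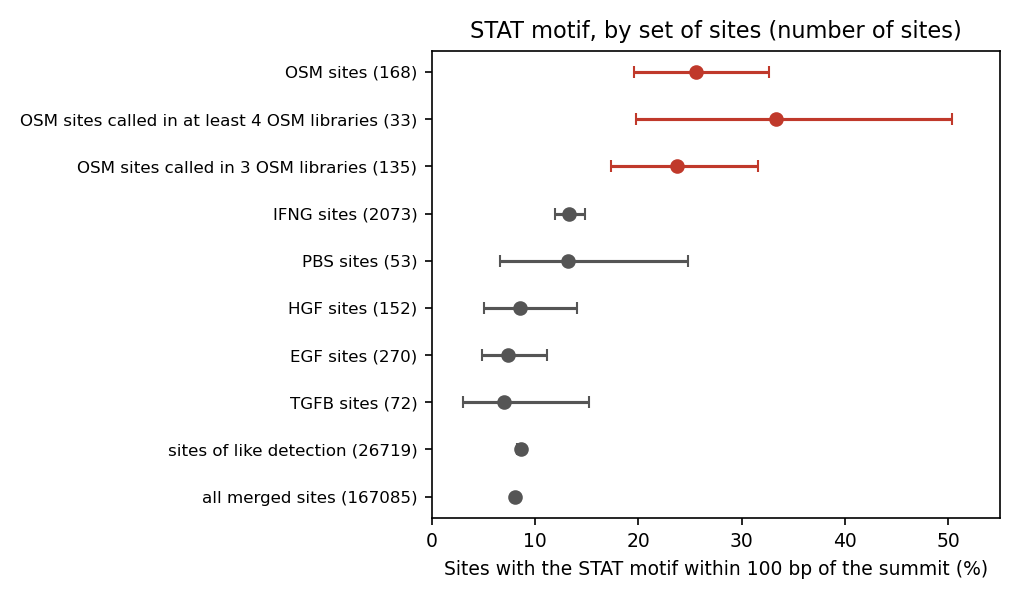
Percent of sites with the STAT palindrome within 100 bp of the strongest summit (horizontal axis), by set of sites with the number of sites in brackets, with points for the share and bars for the 95% Wilson interval. OSM sites (red) are at 23.7 to 33.3%, and all merged sites and those of like detection (called in 3 to 6 libraries) are at 8.05% and 8.59%.

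Other motifs were searched on both strands in the same windows. AP-1 (TGACTCA) was at 39 OSM sites, or 23.2% (17.5 to 30.2%), against 27.2% of all merged sites and 27.7% of sites called in 3 to 6 libraries. The C/EBP palindrome TTGCNNCAA was at 7 sites, 4.17% (2.03 to 8.35%) against 1.84% and 1.93%, both just below the interval, among 16 motifs searched. The Runt motif TGTGGTT was at 7.14% against 6.13% and 6.24%, and the glucocorticoid palindrome ACANNNTGT at 9.52% against 7.89% and 8.33%. The interferon factor motif GAAANNGAA was at 6.55% (3.70 to 11.3%) against 8.61% and 10.95%. The TEAD motif CATTCCA was at 4 sites, 2.38% (0.930 to 5.96%) against 5.75% and 6.01%. The 5.75% was within the interval and the 6.01% just above it. The GC box GGGCGGG, a promoter motif, was at 2 sites, 1.19% (0.327 to 4.24%), against 6.37% of all merged sites, but the 2.90% of sites called in 3 to 6 libraries was within the interval. The forkhead motif TGTTTAC was at 6 sites (3.57% against 3.69% of all merged sites), and the motif AGATAAG of GATA factors also at 6, against 2.103%. The CTCF core CCANNAGGG was at 5 sites (2.98% against 4.71%). The ETS motif CCGGAAG was at 1 site, or 0.595%, against 1.95%. The NF-kB motif GGANTTTCC was also at 1 site, against 1.19%. The SMAD palindrome GTCTAGAC was at none of the OSM sites and 0.265% of all merged sites. The grainyhead palindrome AACCGGTT was likewise at none, against 0.0587%. STAT and AP-1 letters were together at 11 OSM sites, and 97 had neither.

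All libraries had a part in choosing the OSM sites, so whether the OSM sites recur in other libraries could not be tested. Instead, new sets of sites were chosen at 1 time and read at the other. The tests are of these sets, which only partly overlap the OSM sites. Sites called in at least 2 of 3 OSM libraries at 24 h and in at most 1 of the other 20 libraries at 0 h and 24 h numbered 324, of which 125 were OSM sites (38.6% of these and 74.4% of the OSM sites). At 48 h, replicates A, B and C of OSM called 45.99%, 2.47% and 13.0% of them, and the other 16 libraries 0.309 to 7.41%. Replicates A and C were above every other library, and replicate B was not. Excess detection, the percent called minus the percent predicted from the library's rate at other sites called in as many of the choosing libraries, was 16.9 ± 18.5 points under OSM (SD, n = 3) and -2.95 ± 4.43 points elsewhere (SD, n = 16). The sites behind the prediction were not limited in their calls under other ligands, and the chosen sites were. The prediction can therefore be too high for libraries of other ligands. The difference was 19.9 points (two-sided exact permutation test over libraries, p = 0.00413, Benjamini-Hochberg adjusted p = 0.00413 over 2 tests). It was 9.59 points without the 48 h replicate A (exact p = 0.0261).

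Sites chosen in the same way at 48 h numbered 144, of which 63 were OSM sites (43.8% of these and 37.5% of the OSM sites). At 24 h, replicates A, B and C of OSM called 67.4%, 25.7% and 14.6% of them, and the other 16 libraries 2.78 to 20.1%. The highest of these 16 was TGFB replicate A, above OSM replicate C. Excess detection was 25.7 ± 15.1 points under OSM (SD, n = 3) and -1.67 ± 9.51 points elsewhere (SD, n = 16), and all 3 OSM libraries were above every other library on this measure. The difference was 27.4 points (two-sided exact permutation test, p = 0.00103, the smallest that 969 arrangements allow, adjusted p = 0.00206). This result depended on which libraries chose the sites: without the 48 h replicate A, 44 sites were chosen, the difference was 8.60 points and the exact p was 0.457. Without the 48 h replicate C, 7 sites were chosen, the difference was 26.5 points and the exact p was 0.0846. The STAT palindrome was at 19.8% of the sites chosen at 24 h (15.8 to 24.4%) and at 25.0% of those chosen at 48 h (18.6 to 32.7%).

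**Figure D4:**
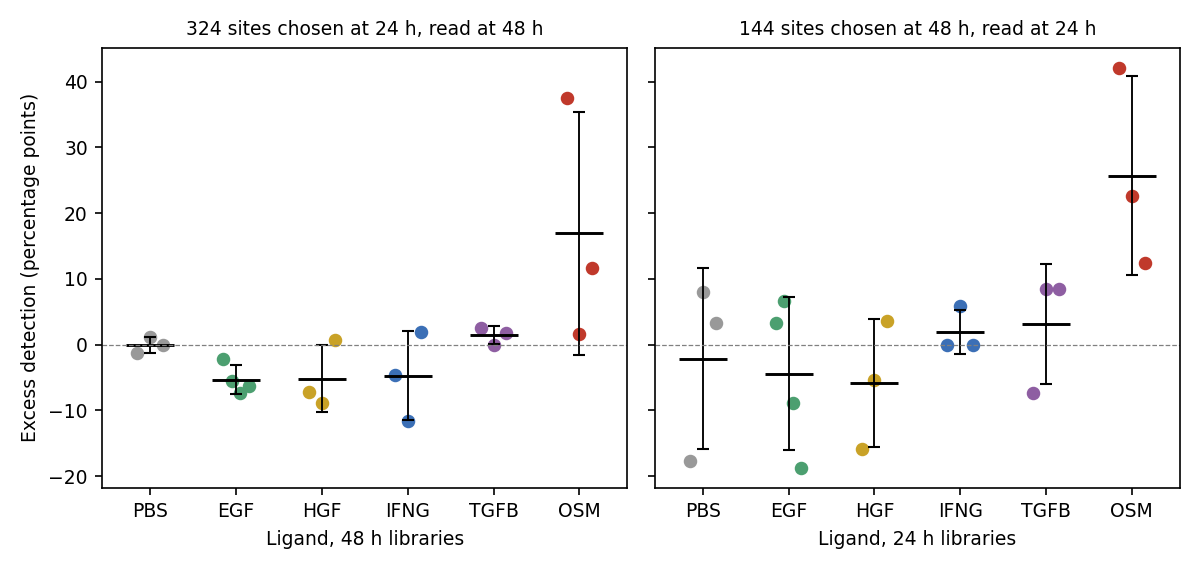
Excess detection in percentage points (vertical axis) of 324 sites chosen at 24 h and read at 48 h (left) and of 144 sites chosen at 48 h and read at 24 h (right), by ligand, with 1 point a library, a bar at the mean and error bars of 1 SD. OSM has the highest mean in both panels, at 16.9 and 25.7 points.

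Most OSM sites were called at both times, and the choice of sites counted both times together. At least 1 library of each time called 163 of 168. Another 5 were called in 3 of 3 OSM libraries at 24 h and 0 of 3 at 48 h, a pattern of 0.346% of all merged sites, and none showed the reverse pattern, found at 0.00299%. The 5 were nearest to RPIA, PSMD6, ADAM19, LRATD2 and FZD8. These counts largely follow from the rule, since a site of 1 time alone had to be called in all 3 libraries of that time. At 48 h these include replicate B, which called 7 of the 168 sites, so the counts say little of timing. The most frequent patterns were 2 libraries at 24 h with 1 at 48 h (87 sites) and 1 with 2 (43 sites). Detection above prediction was 54.2 ± 19.8 points at 24 h and 41.7 ± 39.1 points at 48 h (SD, n = 3 each), a difference of -12.5 points. This is a description, since these calls chose the sites. Without the 48 h replicate B, the library with the fewest peaks, the difference was 6.69 points in the other direction. At the 151 sites called in both A libraries, the median log2 ratio of fold enrichment at 48 h over 24 h was -0.06, with 68 higher at 48 h, and over all 57428 sites called in both it was -0.14.

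Most OSM sites lay outside promoters, as did those the same rule gave for other ligands. By the strongest summit and GENCODE genes, 96 were intergenic (57.1%), 66 intronic (39.3%) and 5 exonic, and 1 (0.595%) was within 1000 bp of a start, against 9.44% of all merged sites and 3.43% of sites called in 3 to 6 libraries. That site, CD300E_1, was 301 bp upstream of CD300E, a receptor of myeloid cells. The exonic sites were in MACF1, LRRIQ3, FBXO28, OXSR1 and BARX2. The median distance to a start was 60822 bp, against 38809 bp and 46051 bp in these sets, and 58 sites (34.5%) were over 100 kb from any start. Of the sites the same rule gave for PBS and TGFB, 1.89% and 1.39% were within 1000 bp of a start, and their median distances were longer than that of the OSM sites, at 95067 bp and 76047 bp. For IFNG, HGF and EGF these shares were 2.89%, 3.29% and 2.96% and the median distances 43127 bp, 38258 bp and 35406.5 bp. Sites were 164 to 896 bp wide with a median of 367.5 bp, against 436 bp over all merged sites and 364 bp at sites called in 3 to 6 libraries. Median GC content within 100 bp of the summit was 43.3%, against 46.3% and 44.8%.

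**Figure D5:**
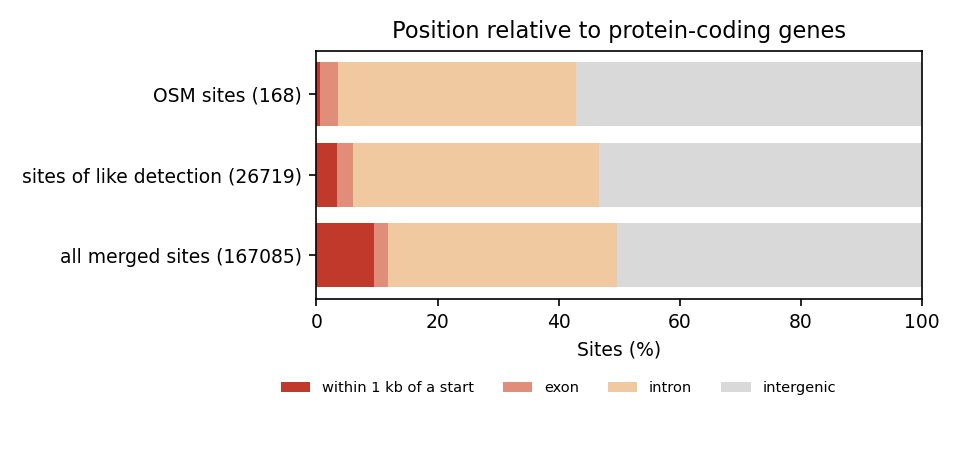
Percent of sites (horizontal axis) within 1 kb of a transcription start, in exons, in introns and intergenic, for 168 OSM sites, 26719 other sites called in 3 to 6 libraries (like detection) and all 167085 merged sites, as stacked bars. The share within 1 kb of a start is 0.595% at OSM sites, 3.43% at sites of like detection and 9.44% at all merged sites.

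Many OSM sites lay beside sites that were often called in other conditions. A site called in at least 18 of the 36 other libraries was within 10 kb of 78 OSM sites (46.4%), against 36.4% of sites called in 3 to 6 libraries. Chromosome 8 held 17 OSM sites (10.1%, against 4.99% of all merged sites), of which 13 were beyond 100 Mb (7.74% against 2.02%). Of the sites the same rule gave for PBS, 4 of 53 (7.55%) were there, and of those for IFNG, 50 of 2073 (2.41%). The 100 Mb limit was not among the settings planned in advance. Chromosome 3 held 18 OSM sites (10.7% against 6.34%), chromosome 20 held 9 (5.36% against 2.56%) and chromosome 22 held none.

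The 81 calls outside OSM were uneven. TGFB 24 h replicate A (108125 peaks) held 25 of them, or 30.9%, against 7.83% of all outside calls at sites called in 3 to 6 libraries. These included ZP3_1, WWC1_1, ITGAV_1, NNMT_1, S100A7_1 and CNTNAP5_1. The other 5 TGFB libraries held 1 together, the 4 CTRL libraries 22, EGF 14, IFNG 8, HGF 6 and PBS 5, and 13 of the 36 libraries held none. Without the TGFB 24 h replicate A the rule gave 206 sites, of which 22.8% had the STAT palindrome.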

How the data were processed

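Peak files of 42 ATAC-seq libraries were used. The authors trimmed reads with Trimmomatic 0.36.5, aligned them to hg38 with Bowtie2 2.3.4.1, removed duplicates with Picard MarkDuplicates and called peaks in each library alone with MACS2 2.1.1.20160309.5 at a q of 0.01, without a control. BMP2 libraries were not analysed here. The ratio column deposited by the authors is a fold enrichment (pileup over local background), and the highest peak stood for a site. The deposited -log10 p and q were used as thresholds only in alternatives, and the deposited score, a multiple of the -log10 q, was not used. Such calls depend on depth and library quality, so a site missing from a library with few peaks was not shown to be closed.

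Peaks on alternate contigs and chromosome Y were left out. All peak positions were inside the reference hg38 chromosomes, and no column of another sample was present. Genes were the 19609 protein-coding genes of GENCODE 44, by basic protein-coding transcripts. Promoter sequences were from RefSeq. The sequences and positions of PIK3C3_1, ZP3_1 and WWC1_1 are not reported here. The highest share of sites that a pair of libraries had in common was 73.2%, so no library was counted as a repeat.

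The members and lists were chosen with earlier results of these data known. The named sites were those called in at least 5 OSM libraries, those within 50 kb of a listed gene, and those of the 5 genes nearest to more than 1 site. Motifs (16) were searched on both strands within 100 bp of the strongest summit. Libraries, not sites, were permuted in the exact tests. The merging and the motif search were checked on short made-up examples, and the rule and the permutation test on simulated calls. The simulated calls held no sites particular to other ligands, so they do not check the prediction where such sites exist. Merging, peak thresholds, the rule, the distances and the libraries were varied. Python 3.11.15, numpy 2.4.6, pandas 2.3.3, scipy 1.17.1, pysam 0.24.0 and samtools 1.23.1 were used.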

Additional observations from a re-analysis of the deposited data

Results flagged for a closer look

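On alternate and unplaced contigs, which the comparisons left out, the same rule gave 4 sites for OSM among 4495 merged sites, above the 2 found for PBS. It gave 2 for HGF, 3 for TGFB, 13 for the 8 EGF libraries and 27 for IFNG, and the difference was not tested. In 5 sets of 4 values (OSM sites called in CTRL and EGF libraries, and excess detection in EGF libraries), no library stood apart, by a rule that chance meets in about 1 of 20 groups.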

How the results depend on the processing

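The number of OSM sites was 171 with peaks merged within 100 bp, 180 with summits extended by 100 bp, 134 at a -log10 q of at least 3 (109 of them among the sites above), 85 at 5 (43 of them), and 168 without libraries of fewer than 30000 peaks, where 163 of the sites above were met. It was 974 at 2 or more OSM libraries, 33 at 4 or more, 87 with no call elsewhere and 266 with at most 2. It ran from 38 to 206 with each library left out. At a -log10 q of at least 3, 15 of the 22 named sites still met the rule, and BCL6_1, S100A7_1, NNMT_1, SRGAP2C_2, CNTNAP5_2, ENPP2_1 and LRATD2_1 did not. At 5, 11 of 22 met it, and SERPINB4_1, S100A8_1, SRGAP2C_1 and OXR1_2 were lost as well.

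The 48 h detection difference ran from 9.59 to 27.5 points over 42 libraries left out in turn (highest exact p 0.0261), and the 24 h difference from 8.60 to 37.2 points (highest exact p 0.457). As the percent called, without the prediction, the differences were 17.1 points (exact p 0.0134) at 48 h and 28.3 points (exact p 0.0031) at 24 h. Sites that gave the prediction were not held to the limit on calls under other ligands. Excess reached -18.8 points in the EGF 24 h replicate D. As a log2 ratio of called to predicted sites, chosen after seeing the data, the differences were 2.80 (exact p 0.00206) at 48 h and 1.82 (exact p 0.144) at 24 h. The TGFB 24 h replicates B and C, of 7540 and 5760 peaks, each called 13 of the 144 sites where under 1 was predicted, and the cause was not tested. With no call allowed elsewhere, also a later choice, they were 21.4 and 37.4 points (exact p 0.00206 and 0.00103). Whether the replicate letters pair the libraries was not settled. Same-letter correlations of deviations were 0.26, 0.095 and 0.185 at 24 h and 0.21, -0.076 and 0.1 at 48 h. Those between different letters ran from -0.332 to 0.303. Permuting within letters as a replicate block left the differences at 19.9 and 27.4 points with an exact p of 0.00463 for each, and the timing difference at -12.5 points. No p is given for timing, since the calls compared also chose the sites. Timing ran from -33.3 to 6.69 points with each OSM library left out, and its direction turned without the 48 h replicate B (6.69).

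The share with the STAT palindrome was 14.3% within 50 bp of the summit (4.12% of all merged sites), 32.7% over the whole site (17.0%), 33.3% at sites in at least 4 OSM libraries, and 22.8 to 36.8% with an OSM library or the TGFB 24 h replicate A left out, a later choice. Within 2500 bp of a start lay 3.57% of OSM sites. Listed genes with an OSM site were 6 within 25 kb and 9 within 100 kb. Other alternatives for position and fold enrichment moved these values by less than their spread.

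Few libraries limit these results: 6 with 11798 to 109778 peaks define the sites, 30 of the 168 sites were called in replicate B or C at both times, and a file of peaks cannot show weak opening below the threshold.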

Other observations

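The sites chosen at 48 h differed by the libraries that chose them. Of the 144, 98 were called in the OSM 48 h replicates A and C but not B, and 86 of these were also called in the OSM 24 h replicate A, while TGFB 24 h replicate B called 2 and replicate C called 0. The other 46 were called in the OSM 48 h replicate B, which has 11798 peaks, and the OSM 24 h replicate A called 11 of them, TGFB 24 h replicate B called 11 and TGFB 24 h replicate C called 13. These TGFB libraries also have few peaks (7540 and 5760).

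The 5 OSM sites missed by both A libraries, which have the most peaks of the OSM libraries, were SRGAP2C_1 (chr1:121640517-121640813), ANKRD30B_1 (chr18:16749129-16749456), SIRPA_1 (chr20:1877055-1877218), ZNF337_1 (chr20:26507746-26508124) and DEFB115_1 (chr20:30383906-30384608). The fold enrichment of these 5 was 3.56 to 6.78 in the libraries that called them.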
